A study of Loxodonta africana with 12 samples.

Results

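The genes described here are the heat shock proteins and chaperones of African elephant (Loxodonta africana) blood cells, 63 of the 16406 genes in the deposited tables. They were taken by symbol: names that begin with DNAJ, HSPA, HSPB, HSPD, HSPE, HSPH or HSP90, the CCT genes 2 to 8, TCP1, HSF1 and HSF2. By role they were 2 heat shock factors, 5 HSP70 genes of the cytosol and nucleus, 3 HSP110 genes, 1 HSP90 gene, 9 genes of the TRiC chaperonin, 12 genes of the endoplasmic reticulum, 9 of mitochondria and 19 other J-domain genes. The remaining 3 carry an HSPB name: HSPB11, and the binding partners HSPBP1 and HSPBAP1. HSPA1A, HSPA1B, HSPA6, HSPD1, HSP90AA1, HSPB1 and CCT2 matched no symbol and were not analysed here. A further 2663 genes had no symbol, so the rule could not take them.

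Chaperones hold unfolded protein chains and help them to fold. HSP70 proteins bind and release clients in an ATP cycle that J-domain proteins (the DNAJ genes) start and that HSP110 proteins help to reset, HSP90 acts later on nearly folded clients, and TRiC is a ring that encloses actin, tubulin and other proteins. In the classical heat shock response the factor HSF1 binds heat shock elements and switches on HSPA1A, DNAJB1, HSPH1 and others, while the unfolded protein response of the endoplasmic reticulum acts on HSPA5, HSP90B1 and DNAJB9.

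Total RNA of blood from African elephants was sequenced after removal of ribosomal RNA, with a stranded library kit. The 12 libraries formed 4 groups of 3: untreated cells at 5 h, cells irradiated with 2 Gy at 5 h, untreated cells at 24 h and cells irradiated with 2 Gy at 24 h. The study compared irradiated with untreated cells, and the title names the DNA damage response. All groups came from the same labelled source, and the labels give no genotype, age, cell isolation or culture. The replicates carry numbers 1 to 3, but nothing says that they are separate animals, draws or cultures, so p-values measure only how far these libraries spread, which could be technical. In bulk samples such as these, fewer cells of a type and less RNA per cell cannot be told apart.

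Library totals were 31059389 to 38138163 counts at 5 h and 18022475 to 37356501 at 24 h. The leukocyte genes PTPRC, CORO1A and LCP1 summed to between 6141 and 13310 CPM (counts scaled to a common library size, with TMM factors over all 12 libraries), and no listed blood cell marker was at 0 in all libraries of a group. The cell markers differed between groups. The summed B cell markers (8 of 8 listed found) were 290 to 352 CPM in untreated cells at 5 h, 183 to 240 CPM after irradiation, 394 to 483 CPM in untreated cells at 24 h and 57.3 to 76.6 CPM in irradiated cells at 24 h. The summed neutrophil markers (8 of 8) were 1112 to 1363, 1268 to 1521, 249 to 337 and 480 to 521 CPM in the same order. The part of these cell differences in the chaperone results was not tested.

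A few chaperones were among the most abundant transcripts of these cells. The 63 genes held 1.42% to 1.74% of the counts of a library. HSPA8, the constitutive cytosolic HSP70, ranked between 1 and 6 among all genes by counts, and HSPA5 (BiP), the HSP70 of the endoplasmic reticulum, between 8 and 17. Per length, the deposited FPKM of HSPA8 in untreated cells at 5 h was 2457 ± 283 (SD, n = 3) and that of HSPA5 was 1685 ± 82.0. HSP90AB1, the constitutive cytosolic HSP90, followed at 474 ± 113 FPKM and HSP90B1, its relative in the endoplasmic reticulum, at 466 ± 38.9, which lie within each other's spread. The mitochondrial HSP70 gene HSPA9 was at 378 ± 13.1 FPKM and DNAJA1, an abundant cytosolic J-domain gene, at 362 ± 55.8, again within the spread. In all, 22 members had a mean of at least 100 FPKM in untreated cells at 5 h, and 7 were below 1 FPKM.

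**Figure D1:**
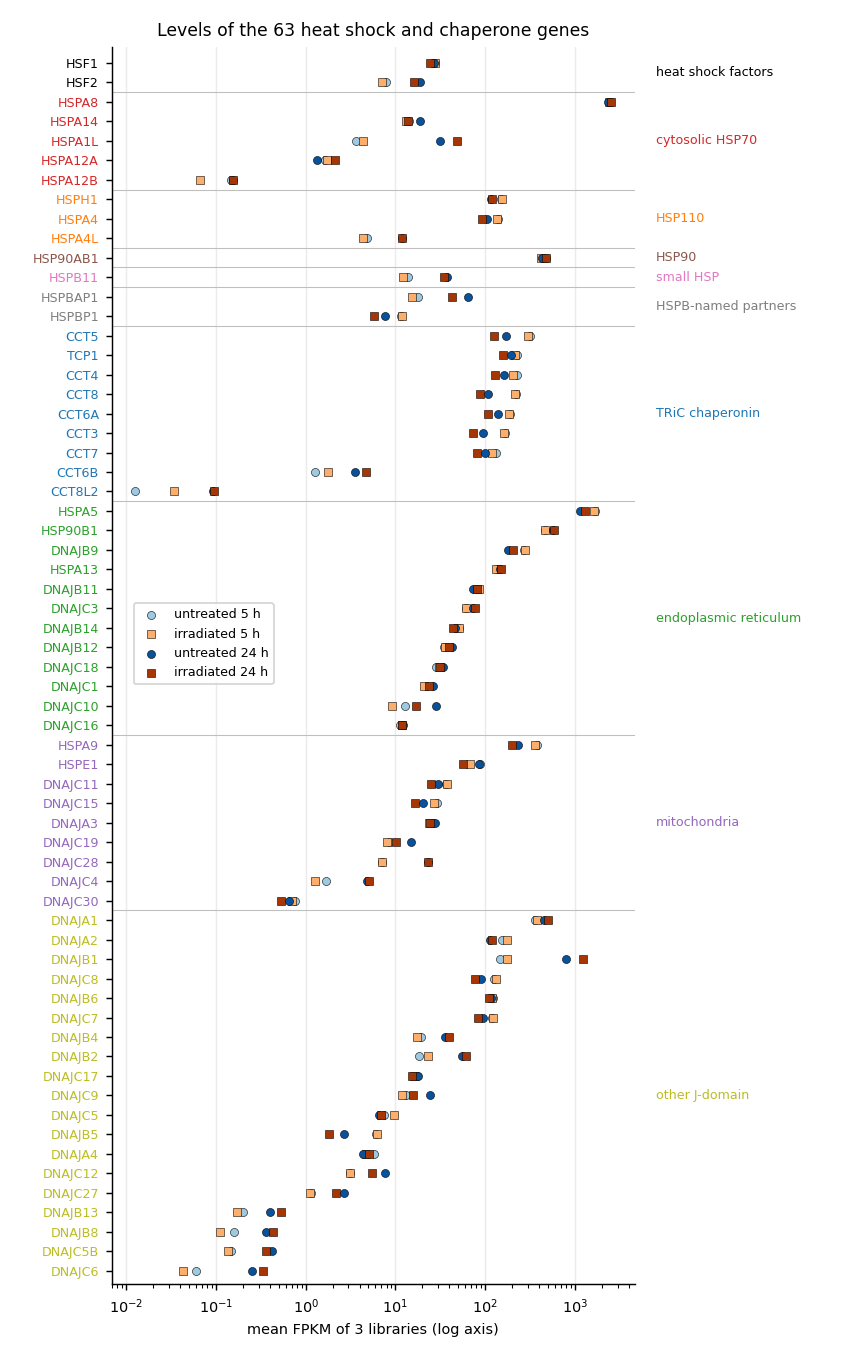
Mean FPKM of each of the 63 genes in the 4 groups on a log axis, ordered by role; circles are untreated and squares irradiated cells, light at 5 h and dark at 24 h (3 libraries each). Irradiated and untreated symbols of a time lie close for most genes, while DNAJB1 and HSPA1L stand at higher levels at 24 h. The core TRiC subunits (TCP1, CCT3, CCT4, CCT5, CCT6A, CCT7 and CCT8) stand at lower levels at 24 h, and CCT6B at higher ones.

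Among the cytosolic HSP70 genes the order by FPKM in untreated cells at 5 h was HSPA8, HSPA14 (14.2 ± 0.73), HSPA1L (3.65 ± 0.52), HSPA12A (1.66 ± 0.44) and HSPA12B (0.147 ± 0.049), and neighbours in that order did not overlap in their spread. CCT8L2, DNAJB8 and DNAJC5B had at most 12 counts in any library and failed the filter on low counts in every comparison. DNAJB13, DNAJC6, DNAJC30 and HSPA12B failed it in some. Of the 63 genes, 57 to 60 were tested in each comparison.

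Several gene models limit what a count can mean. HSPA1L (ENSLAFG00000032136; scaffold 138, bases 1326447 to 1328372, plus strand, build L_africana_Jul_2009) is a model of 1 exon of 1926 bases, and it belongs to a family of near-identical HSP70 genes whose other members matched no symbol, so reads of a copy could be counted there. HSPE1, the co-chaperonin HSP10 (scaffold 163, bases 153091 to 153396), is a model of 306 bases without an intron that lies inside CACNA1B on the opposite strand. HSPA14 shares 1560 bases with a gene without a symbol on the same strand, and DNAJC17 shares 528 bases with C15orf62 on the opposite strand. No source used here gives whether counting used the strand, so the values of these genes are uncertain. Small nucleolar RNA genes lie within HSPA8, HSPA9, CCT6A and TCP1.

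At 5 h after irradiation no chaperone gene passed the test. Of 57 members tested, 0 had an adjusted p below 0.05 (edgeR quasi-likelihood test, Benjamini-Hochberg adjustment over 12969 genes), against 1.60% of all genes tested. At an unadjusted p below 0.05 there were 2 higher and 3 lower members of 57, and 1672 of the 12969 genes in either direction. DESeq2 called 0 members higher and 1 lower, DNAJC10 (adjusted p = 0.0122). The median log2 fold change of the members was -0.02, against 0.00 for all genes, with 24 positive and 33 negative values. The abundant genes differed little: the log2 fold change was -0.02 ± 0.11 (SE) for HSPA8, -0.03 ± 0.08 for HSPA5, 0.03 ± 0.10 for HSP90B1 and -0.05 ± 0.07 for HSPA9.

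The members with the smallest p at 5 h were DNAJC10, HSPBAP1, DNAJB2, DNAJA2 and HSPE1. DNAJC10 (ERdj5; ENSLAFG00000007093; scaffold 3, bases 44368545 to 44410773, minus strand) is a J-domain disulfide reductase of the endoplasmic reticulum. Its level was 32.1, 38.4 and 34.2 CPM in untreated and 26.7, 24.6 and 26.5 CPM in irradiated libraries. All 3 irradiated libraries lay below all untreated ones, and the log2 fold change was -0.44 ± 0.09 (SE; edgeR adjusted p = 0.0697). HSPBAP1 (ENSLAFG00000002885; scaffold 25, bases 22088178 to 22146099, plus strand) encodes a JmjC-domain protein that binds the small heat shock protein HSPB1. It was at 29.5, 28.8 and 28.9 CPM without and 24.2, 25.4 and 25.7 CPM with irradiation, with no overlap (log2 fold change -0.22 ± 0.07, edgeR adjusted p = 0.226).

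Libraries with the same replicate number deviated together at 5 h, and several chaperones show it. HSP90AB1 was at 932, 1453 and 1153 CPM in untreated replicates 1 to 3 and at 886, 1237 and 1045 CPM in the irradiated ones. HSPH1, the HSP110 that is induced by heat, was at 348, 488 and 496 CPM and at 374, 507 and 509 CPM. In both genes replicate 1 was the lowest library of both groups, and the replicates differed more than the treatments. DNAJA4, a further J-domain gene, had 4.74, 10.1 and 10.8 CPM without and 4.94, 8.58 and 7.71 CPM with irradiation, again lowest in replicate 1.

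With the replicate number as a block, 6 members were called higher and 4 lower at 5 h, where the same fit called 10.6% of all genes higher and 9.92% lower. In the same fit all 8 B cell markers (median log2 fold change -0.65), 6 of 9 T cell markers (-0.25), 5 of 7 NK and cytotoxic markers (-0.23) and 3 of 3 leukocyte genes (-0.20) were lower, and their part in the member values was not tested. The higher members were DNAJB1, DNAJB2, DNAJA2, DNAJC5, CCT6B and HSPA1L. DNAJB1 (HSP40), the main J-domain partner of inducible HSP70 (ENSLAFG00000003603; scaffold 26, bases 28689591 to 28692395), was at 177, 138 and 199 CPM in untreated and 216, 186 and 233 CPM in irradiated replicates 1 to 3. The groups overlap, but each irradiated library lay above the untreated library of its number, and the log2 fold change with the block was 0.30 (edgeR adjusted p = 0.000146). The values of the other 5 with the block were 0.31 for DNAJB2 (adjusted p = 0.00344), 0.20 for DNAJA2 (0.00384), 0.39 for DNAJC5 (0.0166), 0.48 for CCT6B (0.0352) and 0.27 for HSPA1L (0.0473). DNAJC5, the cysteine string protein of secretory vesicles, lay outside the naming rule and was chosen after its values were seen.

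The 4 lower members with the block were DNAJC10 (log2 fold change -0.44, edgeR adjusted p = 0.000343), HSPE1 (-0.33, 0.0013), HSP90AB1 (-0.16, 0.0109) and HSPBAP1 (-0.22, 0.0154). HSPE1 was at 26.7, 33.8 and 31.6 CPM without and 22.3, 25.0 and 26.3 CPM with irradiation, so that the groups did not overlap. For HSP90AB1 the fit without the block gave -0.17, and 0.01 with untreated replicate 2 left out. That fit kept irradiated replicate 2, so it does not test the difference within replicate numbers. Each irradiated library of HSP90AB1 lay below the untreated library of its number. The edgeR fit without the block called 0 of these 10 members.

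At 24 h after irradiation 2 chaperone genes were lower and 0 were higher of 58 tested, with 4.94% of all genes called lower and 1.80% higher. The 2 were DNAJC10 and HSPBAP1, the genes with the smallest p at 5 h. The median log2 fold change of the members was -0.05, against 0.01 for all genes. At an unadjusted p below 0.05 there were 2 higher and 7 lower members of 58, and 3096 of all 14373 genes in either direction.

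DNAJC10 was at 57.8, 54.9 and 58.6 CPM in untreated and at 34.2, 38.5 and 34.6 CPM in irradiated libraries at 24 h. The groups were far apart: the highest irradiated library was below the lowest untreated one. The log2 fold change was -0.69 ± 0.09 (SE; edgeR adjusted p = 0.00851). Leaving out each library in turn gave -0.76 to -0.65, with adjusted p between 0.0162 and 0.0435. The untreated level itself was higher at 24 h than at 5 h. In CPM the irradiated level at 24 h was near the untreated level at 5 h, but this rests on the TMM scale. By FPKM the irradiated libraries at 24 h were at 15.75, 19.05 and 15.84. They lay above the untreated libraries at 5 h, at 11.61, 14.28 and 12.34 FPKM.

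HSPBAP1 was at 73.0, 71.7 and 80.0 CPM in untreated and 59.6, 52.2 and 48.7 CPM in irradiated libraries. The groups did not overlap, and the log2 fold change was -0.49 ± 0.11 (SE; edgeR adjusted p = 0.0403). This call was lost in 5 of the fits that left out 1 library, with adjusted p up to 0.158, and stood when irradiated replicate 1 was left out (0.022). With the replicate block the adjusted p was 0.0742. In the same libraries all 8 of the B cell markers tested were lower (median log2 fold change -3.26), as were 3 of 9 T cell markers (-0.49) and 4 of 7 NK and cytotoxic markers (-1.07). Of the neutrophil markers 2 of 8 were higher (0.92), of the monocyte markers 2 of 6 (0.67) and of the platelet markers 3 of 4 (0.95). Their part in the values of DNAJC10 and HSPBAP1 was not tested.

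**Figure D2:**
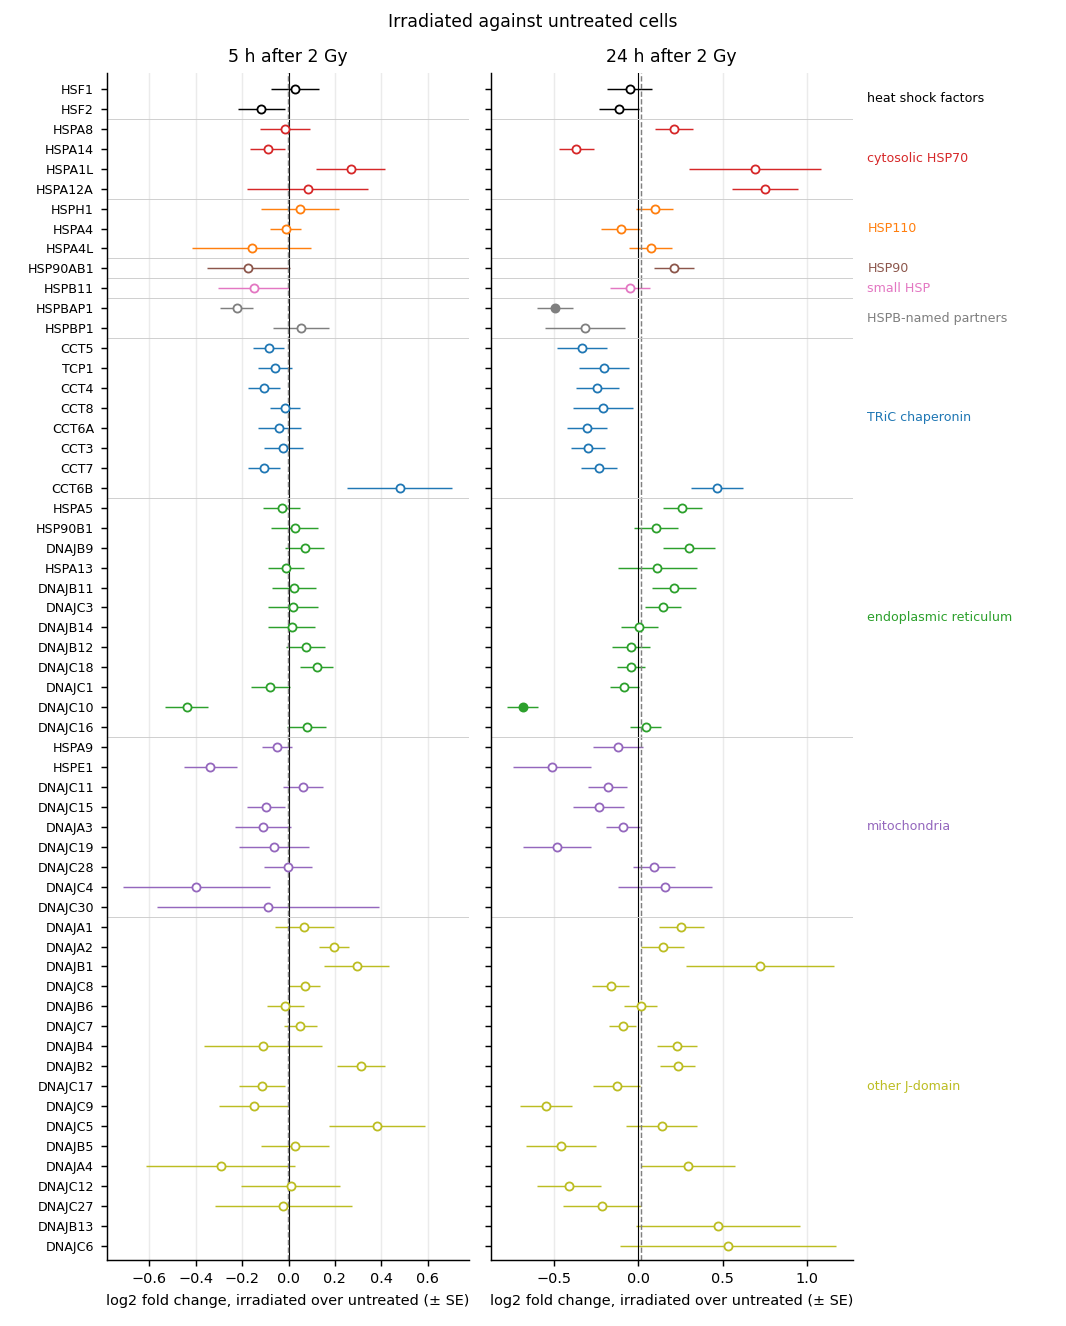
Log2 fold change (± SE) of irradiated over untreated cells at 5 h (left) and 24 h (right) for each tested member by role; filled points passed the edgeR test, and the dashed line is the median of all genes. The only filled points are DNAJC10 and HSPBAP1 at 24 h, while HSPA1L and DNAJB1 lie to the right at 24 h with wide errors.

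The other members near the threshold at 24 h were HSPA12A, a distant relative of HSP70, DNAJC9, a histone co-chaperone, and HSPA14. HSPA12A was at 2.13, 2.74 and 1.93 CPM without and 3.59, 3.98 and 3.96 CPM with irradiation (log2 fold change 0.75 ± 0.20, edgeR adjusted p = 0.0684). DNAJC9 was at 15.4, 13.9 and 18.5 CPM without and 9.47, 12.2 and 11.4 CPM with irradiation (-0.55 ± 0.15, 0.0859). HSPA14 was at 23.8, 24.5 and 25.3 CPM against 16.8, 20.01 and 20.7 CPM (-0.37 ± 0.11, 0.0895). In all of them the groups did not overlap, and none passed. DESeq2 called HSPA12A and DNAJC9 as well as DNAJC10 and HSPBAP1.

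DNAJB1 and HSPA1L spread widely among the libraries at 24 h. DNAJB1 was at 625, 420 and 974 CPM in untreated and 594, 962 and 1808 CPM in irradiated libraries, and HSPA1L at 52.3, 31.6 and 68.6 against 44.7, 83.5 and 121 CPM. Replicate 3 was the highest library of both groups in both genes, and the groups overlapped. The log2 fold change was 0.72 ± 0.44 for DNAJB1 (edgeR adjusted p = 0.401) and 0.69 ± 0.39 for HSPA1L (0.365). Without irradiated replicate 3 the value of DNAJB1 was 0.19. The 7 core TRiC subunits had values from -0.34 (CCT5) to -0.20 (TCP1) and CCT6B had 0.47, none of them called.

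**Figure D3:**
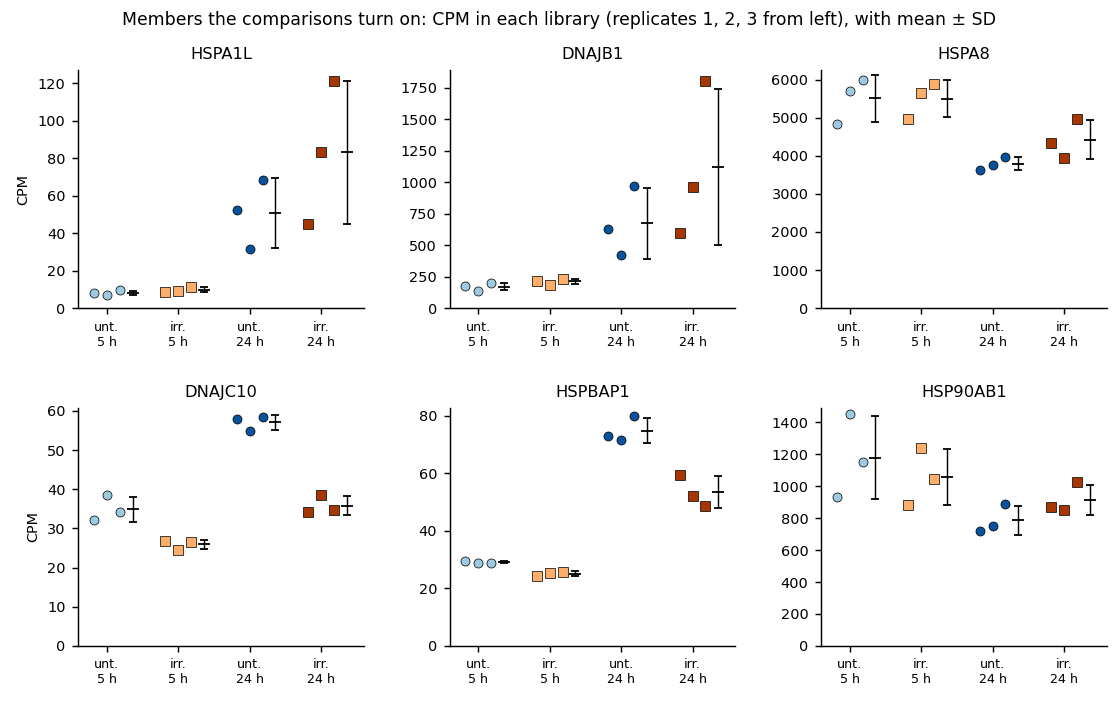
CPM of 6 members in each of the 12 libraries (circles untreated, squares irradiated; replicates 1, 2 and 3 from left to right in each group), with mean ± SD beside them. DNAJC10 and HSPBAP1 separate by irradiation at 24 h, DNAJB1 and HSPA1L rise with time and spread widely at 24 h, and HSPA8 and HSP90AB1 overlap between treatments.

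No member passed the test of whether irradiation acted differently at the times. Of 60 members tested for the interaction, 0 were called, against 0.882% of all genes, and DESeq2 made 0 calls. At an unadjusted p below 0.05 there were 0 higher and 2 lower members, and 1512 of all 15200 genes in either direction. The interaction was -0.25 ± 0.13 (SE) for DNAJC10 (edgeR adjusted p = 0.583) and -0.27 ± 0.13 for HSPBAP1 (0.501). For DNAJB1 it was 0.43 ± 0.50 (0.912) and for HSPA1L 0.43 ± 0.46 (0.898). The larger fold changes of these genes at 24 h were thus not shown to differ from those at 5 h.

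Between 5 h and 24 h most chaperones were called, as were most of all genes tested, in untreated and in irradiated cells. In untreated cells 14 of 59 tested members were higher at 24 h and 32 lower, where 32.6% of all genes were higher and 30.5% lower. In irradiated cells 13 of 58 were higher and 28 lower, where 35.3% of all genes were higher and 30.6% lower. The median log2 fold change was -0.44 for members and 0.11 for all genes in untreated cells, and -0.30 and 0.10 in irradiated cells. No label tells whether the times were prepared or sequenced in separate batches, so time and such a batch cannot be told apart. Between the times 6 of 8 neutrophil markers were lower in untreated (median log2 fold change -1.82) and 5 of 8 in irradiated cells (-1.43), and the leukocyte genes were lower in 3 of 3 and 2 of 3 (-0.80 and -0.76). In untreated cells 5 of 9 T cell markers (0.48), 4 of 7 NK and cytotoxic markers (0.70) and 4 of 8 B cell markers (0.40) were higher, and 2 of 4 platelet markers were lower (-0.65). In irradiated cells 8 of 8 B cell markers were lower (-2.29). Of 9 T cell markers 3 were higher and 1 lower (0.30), and of 7 NK and cytotoxic markers 1 was higher and 2 lower (-0.12). Of 6 stromal and endothelial markers 4 were higher and 1 lower (1.83). Among these, COL1A1, COL1A2 and COL3A1 were low, at most 0.4475 CPM at 5 h and 1.746 CPM at 24 h. The endothelial CDH5 was at 3.62 to 5.52 CPM at 5 h and 1.07 to 1.72 CPM at 24 h. The other endothelial genes of the list differed from it in these irradiated cells. PECAM1 was higher, at 305 to 320 CPM at 5 h and 773 to 925 CPM at 24 h. VWF overlapped, at 24.0 to 42.5 CPM at 5 h and 18.4 to 26.0 CPM at 24 h. The part of these cell differences in the chaperone values was not tested.

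The counts depend on how libraries are scaled. TMM factors were 0.85 to 0.89 at 5 h and 1.09 to 1.29 at 24 h. With library totals alone the median of all genes moved up by 0.42 in untreated and 0.34 in irradiated cells. Members called higher then numbered 22 and lower 18 in untreated cells (all genes 52.5% and 16.6%), and 17 and 19 in irradiated cells (49.7% and 18.7%). In untreated cells 14 members lost their call with library totals and 8 gained one, and in irradiated cells 9 lost and 4 gained one. The fold changes below are on the TMM scale.

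The comparisons of the times in untreated and in irradiated cells share no library. Of 58 members tested in both, 11 were higher in both, 27 were lower in both and 0 had opposite calls. A further 8 were called in untreated cells only, 3 in irradiated cells only and 9 in neither. The matching counts over all genes, here and under both scalings, were not made. In untreated cells 32.6% of all genes were higher and 30.5% lower, and in irradiated cells 35.3% and 30.6%. The shared calls are thus not shown to be particular to chaperones. The interaction tests the difference between these comparisons, and, as given above, it called 0 members. The 11 higher members and 18 of the 27 lower members were called in both comparisons under both scalings. The 11 were HSPA1L, DNAJB1, HSF2, HSPA4L, HSPB11, HSPBAP1, CCT6B, DNAJB2, DNAJC4, DNAJC10 and DNAJC28.

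**Figure D4:**
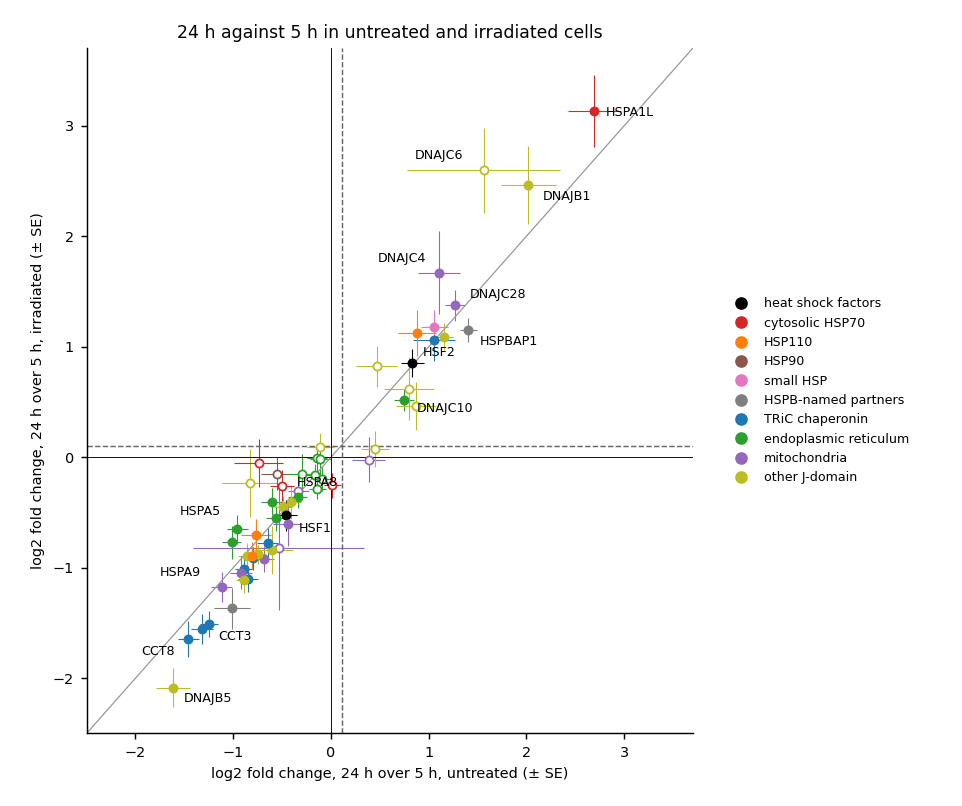
Log2 fold change (± SE) of 24 h over 5 h in untreated cells (horizontal) and irradiated cells (vertical) for each member tested in both, coloured by role; filled points passed the edgeR test in both, dashed lines are the medians of all genes, and the grey line marks equal values. HSPA1L and DNAJB1 lie at the upper right, as does CCT6B, and the core TRiC subunits, HSPA9 and DNAJB5 at the lower left.

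The heat shock factors moved in opposite directions on the TMM scale. HSF1, the main factor of the heat shock response, was at 49.98, 49.9 and 43.2 CPM at 5 h and 33.2, 30.6 and 37.3 CPM at 24 h in untreated cells (log2 fold change -0.46 ± 0.11, edgeR adjusted p = 0.00584). In irradiated cells HSF1 fell by 0.53 ± 0.14 (0.00919). With library totals both calls of HSF1 ended, at -0.04 and -0.19. HSF2, the second factor, was at 14.9, 15.1 and 13.6 CPM and then 22.6, 28.9 and 24.0 CPM in untreated cells, with no overlap. It rose by 0.83 ± 0.11 in untreated (0.000314) and 0.85 ± 0.13 in irradiated cells (0.0005), and was called under both scalings.

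HSPA1L and DNAJB1 had the largest increases of the members called higher in both comparisons. HSPA1L was at 8.02, 6.86 and 9.39 CPM in untreated cells at 5 h against 52.3, 31.6 and 68.6 CPM at 24 h, a log2 fold change of 2.70 ± 0.27 (edgeR adjusted p = 5.91e-05). In irradiated cells it went from 8.80, 9.36 and 11.3 CPM to 44.7, 83.5 and 121 CPM (3.13 ± 0.33, 7.5e-05). Every library at 24 h lay above every library at 5 h. DNAJB1 rose by 2.02 ± 0.28 in untreated (0.00035) and 2.46 ± 0.35 in irradiated cells (0.000403), also without overlap. Its mean FPKM went from 145 to 790 in untreated and from 177 to 1226 in irradiated cells, so that at 24 h only HSPA8 and HSPA5 had higher means among the members.

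HSPH1, DNAJA1 and DNAJB4 gave mixed values. HSPH1 was at 348 to 496 CPM at 5 h and 226 to 273 CPM at 24 h in untreated cells, a fall by 0.77 ± 0.15 (edgeR adjusted p = 0.00212). In irradiated cells it fell by 0.70 ± 0.14 (0.00263). The call in untreated cells ended with library totals. DNAJA1 was at 415, 525 and 558 CPM at 5 h and at 430, 408 and 512 CPM at 24 h, values that overlap, and was not called (-0.11 ± 0.14 in untreated, 0.09 ± 0.13 in irradiated cells). With library totals its values were 0.31 and 0.43, the second called (adjusted p = 0.0168). DNAJB4, a close relative of DNAJB1, was called in irradiated cells (0.82 ± 0.18, 0.00414) and had 0.47 ± 0.21 in untreated cells (0.0769). In untreated cells DNAJB4 was called higher with library totals (0.89, 0.00588).

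HSPA8 was at 4825, 5715 and 6000 CPM at 5 h and 3636, 3768 and 3973 CPM at 24 h in untreated cells. It was called lower there (log2 fold change -0.50 ± 0.12, edgeR adjusted p = 0.0075) and had -0.26 ± 0.14 in irradiated cells (0.128). With library totals the values were -0.08 and 0.08 and the call ended. Its share of all counts was 0.417% to 0.516% at 5 h and 0.423% to 0.544% at 24 h. In irradiated cells it was called lower without irradiated 24 h replicate 1 (-0.33, adjusted p = 0.045) or replicate 3 (-0.43, 0.0355). HSP90AB1 was called lower in untreated cells (-0.55 ± 0.17, 0.0219) and not in irradiated cells (-0.15 ± 0.15, 0.393), and its call ended with library totals. It also ended without untreated 5 h replicate 2 (adjusted p = 0.0689) or untreated 24 h replicate 1 (0.0559). Of the other HSP110 genes, HSPA4 fell by 0.81 ± 0.09 and 0.89 ± 0.12 in untreated and irradiated cells. HSPA4L rose by 0.88 ± 0.20 and 1.13 ± 0.21. HSPA4 and HSPA4L kept their calls under both scalings.

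All 7 core subunits of TRiC that the tables name were lower at 24 h in both comparisons. Of all genes 30.5% were lower in untreated and 30.6% in irradiated cells. CCT8 was at 408, 438 and 423 CPM at 5 h and 133, 171 and 146 CPM at 24 h in untreated cells, a log2 fold change of -1.46 ± 0.11 (edgeR adjusted p = 1.11e-05), and had -1.64 ± 0.17 in irradiated cells (6.38e-05). CCT5 fell by 1.32 and 1.56, CCT3 by 1.25 and 1.51, CCT4 by 0.89 and 1.01, CCT6A by 0.85 and 1.10 and CCT7 by 0.80 and 0.91. TCP1, the first subunit named, fell least, by 0.65 ± 0.10 (0.000713) and 0.78 ± 0.14 (0.00133). In each of these subunits every library at 24 h lay below every library at 5 h, and each call stood under both scalings. With library totals 16.6% and 18.7% of all genes were lower. The times did not overlap in 46 of 59 tested members in untreated and 45 of 58 in irradiated cells. The share of all genes without overlap was not counted.

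The subunits did not fall equally. CCT5 was the highest of the 7 by FPKM in all 6 libraries at 5 h, and TCP1 in all 6 at 24 h. CCT7 was the lowest at 5 h and CCT3 at 24 h. The highest was 1.99 to 2.51 times the lowest in the 12 libraries. The summed FPKM of the 7 was 1334 to 1568 at 5 h, 940 to 1010 in untreated cells at 24 h and 688 to 879 in irradiated cells at 24 h. The irradiated and untreated sums at 24 h did not overlap, but none of the subunits passed the irradiation test on the TMM scale. With library totals, which FPKM resembles, CCT3 did (log2 fold change -0.38, edgeR adjusted p = 0.0396).

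CCT6B, the paralog of CCT6A known from testis, went the other way. It was at 2.84, 1.66 and 2.67 CPM at 5 h and 4.33, 4.85 and 5.25 CPM at 24 h in untreated cells, and at 3.32, 2.83 and 3.84 CPM and then 5.73, 6.98 and 7.41 CPM in irradiated cells. It rose by 1.06 ± 0.22 (edgeR adjusted p = 0.00278) and 1.06 ± 0.18 (0.00115), with no overlap of the times. Per length CCT6B was 0.433% to 1.15% of CCT6A at 5 h and 2.33% to 5.09% at 24 h, so CCT6A remained the main form in every library.

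**Figure D5:**
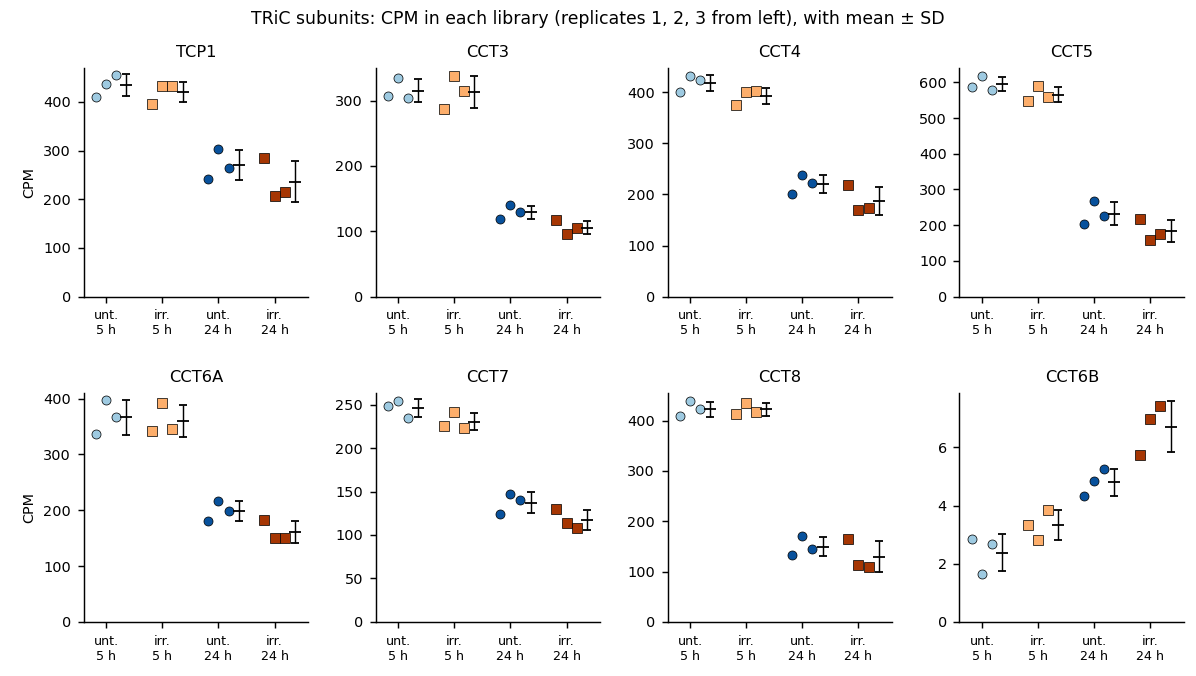
CPM of the 7 core TRiC subunits and of CCT6B in each of the 12 libraries (circles untreated, squares irradiated; replicates 1, 2 and 3 from left to right), with mean ± SD beside them and axes from 0. Each core subunit is lower in all libraries at 24 h than in any at 5 h, and CCT6B is higher.

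In the endoplasmic reticulum 1 of 12 members was higher and 5 were lower at 24 h in untreated cells, and 1 higher and 6 lower in irradiated cells, against the shares of all genes given above. This balance rests on the scaling. With library totals 6 were higher and 2 lower in untreated cells, where 52.5% of all genes were higher and 16.6% lower. The median log2 fold change there was 0.18 (all genes 0.525), against -0.23 on the TMM scale (all genes 0.108). In irradiated cells 2 were then higher and 2 lower, where 49.7% of all genes were higher and 18.7% lower. HSPA5 was at 4028, 3737 and 3665 CPM at 5 h and 1735, 1958 and 2030 CPM at 24 h in untreated cells, a log2 fold change of -0.96 ± 0.11 (edgeR adjusted p = 9.9e-05). In irradiated cells HSPA5 went from 4057, 3672 and 3564 to 2316, 2015 and 2576 CPM (-0.65 ± 0.13, 0.0026). The libraries of the times did not overlap in either comparison. DNAJB9 (ERdj4), which helps to clear misfolded protein, fell by 1.02 ± 0.10 and 0.77 ± 0.15 and was called in both. HSP90B1 was not called, at -0.11 ± 0.11 and -0.02 ± 0.15, and its sign turned with library totals (0.31 and 0.32, the first with an adjusted p of 0.0239).

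On the TMM scale DNAJC10 was the 1 higher member of the endoplasmic reticulum in each comparison. With library totals DNAJB12, DNAJC1, DNAJC3, DNAJC18 and HSP90B1 were also called higher in untreated cells (adjusted p 0.014 to 0.0424), and DNAJC3 in irradiated cells (0.033). DNAJC10 rose by 0.75 ± 0.10 in untreated cells (edgeR adjusted p = 0.000287) and 0.52 ± 0.10 in irradiated cells (0.00199). DNAJB11 and DNAJB14, further J-domain proteins of this compartment, were called lower in both comparisons, and DNAJC16 was also. DNAJC18 was called lower in irradiated cells. These calls ended with library totals.

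Among the 9 mitochondrial members 2 were higher and 5 lower in untreated cells (all genes 32.6% and 30.5%). In irradiated cells 2 were higher and 4 lower (35.3% and 30.6%). With library totals 3 were higher and 3 lower in untreated cells (all genes 52.5% and 16.6%). In irradiated cells 2 were then higher and 3 lower (49.7% and 18.7%). HSPA9 (mortalin), the HSP70 of the matrix and of protein import, was at 861, 871 and 926 CPM at 5 h and 360, 453 and 378 CPM at 24 h in untreated cells, a log2 fold change of -1.12 ± 0.11 (edgeR adjusted p = 4.99e-05). In irradiated cells it fell by 1.18 ± 0.14 (0.000135). DNAJC15, a J-domain protein of the inner membrane, fell by 0.92 and 1.05, and DNAJC11 by 0.69 and 0.92. HSPE1 was called in both (-0.44 ± 0.15 and -0.60 ± 0.20), but its calls ended with library totals. The untreated call also ended without 5 h replicate 2 or 3 or 24 h replicate 1 or 3 (adjusted p 0.0574 to 0.0896), and the irradiated call without 5 h replicate 2 or 3 or 24 h replicate 2 (0.0546 to 0.0742). DNAJC28 rose by 1.27 ± 0.11 and 1.37 ± 0.14, and DNAJC4 by 1.10 ± 0.21 and 1.67 ± 0.37.

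Of the other J-domain genes, 5 of 16 tested were higher and 8 lower in untreated cells (all genes 32.6% and 30.5%). In irradiated cells 4 were higher and 7 lower (35.3% and 30.6%). With library totals 6 were higher and 4 lower in untreated cells (all genes 52.5% and 16.6%). The median log2 fold change there was 0.16, against -0.26 on the TMM scale. In irradiated cells 7 were then higher and 4 lower (49.7% and 18.7%). The median of all genes also moved up with library totals, by 0.42 in untreated and 0.34 in irradiated cells. DNAJB5 had the largest fall of all members: it was at 6.53, 8.87 and 8.74 CPM at 5 h and 2.40, 2.60 and 2.66 CPM at 24 h in untreated cells (log2 fold change -1.62 ± 0.17, edgeR adjusted p = 7.89e-05). In irradiated cells it went from 7.56, 8.80 and 8.54 to 2.18, 1.75 and 1.67 CPM (-2.09 ± 0.18, 2.92e-05). The times were far apart in both. DNAJC8, which associates with the spliceosome, fell by 0.89 and 1.11. DNAJB2, which binds ubiquitinated clients, rose by 1.16 ± 0.10 and 1.09 ± 0.12. DNAJC6 (auxilin), which uncoats clathrin vesicles, was called in irradiated cells (2.60 ± 0.38, 0.000491), where its level was 0.158, 0.224 and 0.123 CPM at 5 h and 1.11, 1.16 and 0.66 CPM at 24 h. In untreated cells it was not called (1.56 ± 0.79, 0.111), with 1 library at 1.35 CPM and the other two at 0.347 and 0.341 CPM. The lower calls of DNAJB6, DNAJC5 and DNAJC17 in both comparisons, and those of DNAJA4 and of the mitochondrial DNAJA3 in untreated cells, ended with library totals.

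The HSPB-named genes also changed with time. HSPBP1, which promotes nucleotide exchange on HSP70, fell by 1.01 ± 0.18 in untreated (edgeR adjusted p = 0.00136) and 1.37 ± 0.19 in irradiated cells (0.000336). HSPBAP1 rose by 1.41 ± 0.08 (4.15e-06) and 1.15 ± 0.11 (4.74e-05). HSPB11, a subunit of intraflagellar transport, rose by 1.06 ± 0.14 and 1.18 ± 0.16. All kept their calls under both scalings.

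Other genes of the folding pathways, taken from lists by function, gave the following counts. Of the cytosolic co-chaperones and related factors, 0 of 29 were called at 5 h (3, all lower, with the replicate block) and 2 of 30 were lower at 24 h after irradiation: BAG2, an exchange factor of HSP70 (log2 fold change -1.08, edgeR adjusted p = 0.0236), and PPID, an HSP90 cyclophilin (-0.41, 0.0498). With the replicate block both calls ended (0.0542 for BAG2 and 0.0752 for PPID). Of all genes tested at 5 h, 1.60% were called without the block, and with it 10.6% were higher and 9.92% lower. At 24 h after irradiation 1.80% of all genes were higher and 4.94% lower without the block. Between the times 6 of the 30 were higher and 17 lower in untreated cells (median log2 fold change -0.29), and 6 higher and 16 lower in irradiated cells (-0.33). Of all genes 32.6% were higher and 30.5% lower in untreated cells, and 35.3% and 30.6% in irradiated cells. With library totals 10 of the list were higher and 7 lower in untreated cells (0.12), and 9 higher and 8 lower in irradiated cells (0.01). Of all genes 52.5% were then higher and 16.6% lower in untreated cells, and 49.7% and 18.7% in irradiated cells. BAG3, the partner of HSP70 in selective autophagy and a known heat shock target, rose by 2.01 in untreated (0.0052) and 3.27 in irradiated cells (0.000325), from at most 0.682 CPM at 5 h to between 1.34 and 7.02 CPM at 24 h. The HSP90 cofactors CDC37 and STIP1 fell by 1.08 and 0.97 in untreated cells and by 1.03 and 0.85 in irradiated cells. BAG3, CDC37 and STIP1 kept these calls with library totals.

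Of 19 tested folding genes of the endoplasmic reticulum 0 were called in either irradiation comparison; the replicate block at 5 h called 2 higher and 2 lower. With time 4 were higher and 10 lower in untreated cells (median -0.27), and 5 higher and 7 lower in irradiated cells (-0.17). With library totals 7 were higher and 3 lower in each comparison (0.15 and 0.17). For this list and the next, the shares of all genes called by irradiation and with time are those given with the co-chaperones. SIL1, the exchange factor of HSPA5, rose by 2.01 and 2.31, and XBP1, a factor of the unfolded protein response, fell by 0.83 and 0.53, the second call ending with library totals (adjusted p = 0.103). Of 11 mitochondrial folding and proteolysis genes 0 were called by irradiation, and 1, lower, at 5 h with the replicate block. With time 3 were higher and 4 lower in untreated cells (median -0.04), and 3 higher and 5 lower in irradiated cells (-0.26). With library totals 6 were higher and 3 lower, and 5 higher and 3 lower (0.38 and 0.08), against the same shares of all genes. GRPEL1, the exchange factor of HSPA9, fell by 1.22 and 1.15, and TRAP1, the mitochondrial HSP90, by 0.98 and 0.97.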

How the data were processed

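RNA-seq of 12 libraries in 4 groups of 3 was used. The authors deposited 1 table per time point with raw counts per gene and library and with FPKM (counts scaled by exon length and read total), per the file headers, on genome build L_africana_Jul_2009 with Ensembl genes. The sources used here do not give the aligner, counting program or strand setting. The 12 deposited columns of transformed values (RLog) were not used. File starts count from 0 and are given here from 1.

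Counts were tested with edgeR 4.0.16 (TMM factors, filterByExpr, quasi-likelihood test) in R 4.3.3, on the 6 libraries of each comparison and on all 12 for the interaction, with Benjamini-Hochberg adjustment over all genes tested and a threshold of 0.05. FPKM served for levels and entered no test. It is scaled by the total of each library, without TMM factors. The scripts were tested on simulated data. Alternatives were RLE factors, DESeq2 1.42.0, other filters, a replicate block, 1 fit of all 12 libraries, each library left out and, added after seeing the data, library totals (members and lists). Totals of 18022475 to 38138163 counts per library set the precision; replicates differed beyond counting noise in every pair.

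Replicate numbers paired the samples only at 5 h: deviations from the group means correlated at 0.37, 0.33 and 0.57 for same-numbered libraries over 12969 genes, and the numbers come from the labels.

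Named genes were a set list of main chaperones, members called by irradiation or in the interaction, the 5 smallest p per irradiation comparison and the 8 largest called changes per direction between times; DNAJA4, DNAJB4, DNAJC11 and other genes outside this rule were chosen after their values were seen. Members and lists were chosen with earlier results of these data known. A gene of the co-chaperone list is not reported here and was left out of that list's counts.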

Additional observations from a re-analysis of the deposited data

How the results depend on the processing

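With the replicate block 6 members were called higher and 4 lower by irradiation at 5 h; DESeq2 and the fit of all 12 libraries each called 1 lower, DNAJC10. At 24 h DESeq2 called 1 higher. Members called lower at 24 h numbered 1 with the block, 4 in the fit of all 12 libraries and 1 to 3 when each library was left out. Replicate numbers did not pair the libraries at 24 h (correlations 0.12, -0.40 and 0.65) or across times. Beside the calls given at 5 h and that of HSPBAP1 at 24 h, the block ended the calls between times of HSPA12A (edgeR adjusted p = 0.0698), DNAJC5 (0.0652) and DNAJC27 (0.0531) in untreated cells and of DNAJC17 in irradiated cells (0.0646). DNAJB4 in untreated cells was called with it (0.0367). The block changed no other call of a member.

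With library totals 22 members were higher and 18 lower between the times in untreated cells. Signs turned for members that were not called: DNAJA1 in untreated cells had 0.31 with library totals, and in irradiated cells -0.048 with DESeq2, -0.00049 without a filter and -0.11 to 0.11 with each library left out. In irradiated cells library totals gave 0.19 for HSP90AB1, 0.32 for HSP90B1 and 0.078 for HSPA8, and the stricter filter gave 0.088 for HSP90B1. In untreated cells library totals gave 0.31 for HSP90B1. The interaction of DNAJB1 ranged from -0.10 to 0.80 and the 5 h value of HSP90AB1 from -0.32 to 0.012 with each library left out. Of the other values of named members, 1041 kept their direction and side of the threshold, 22 crossed to being called and 23 lost the call. The causes were not tested. Depth limits the 3 members with at most 12 counts, for which no change could be seen.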
